A study of Mus musculus with 168 samples.

Results

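Pre-mRNA splicing factors were followed as 52 genes of 43309 gene identifiers listed, in single cells from the brains of old mice. They were chosen by symbol alone, as names that start with Srsf and a digit, Hnrnp, Snrp, or Sf3a or Sf3b and a digit. The 4 genes with such names that are not annotated as protein-coding, a class that includes pseudogenes, were left out. They fall into 4 groups by role: 11 SR proteins, 20 heterogeneous nuclear ribonucleoproteins (hnRNPs), 12 proteins of the small nuclear ribonucleoproteins (snRNPs) and 9 subunits of the SF3a and SF3b complexes.

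RNA of 150 single cells from male C57BL/6 mice was read by Smart-seq2, a method that copies whole transcripts from 1 cell at a time. Astrocytes came from striatum, with the subventricular zone (SVZ) cut away (13 cells), and from somatosensory cortex (4 cells) of mice aged 25 months, were sorted as GLAST+ CD45- O4-, and were picked by hand from 3 or 4 pooled mice. They are set against cells of the SVZ, the stem cell layer beside the lateral ventricle, sorted as GLAST+ CD133+ CD45- O4- from 4 pooled mice that the labels give as 23 months old and the protocol as 22. All animals were old and the labels name no treatment, column names divide the SVZ cells into a series ogp (68 cells) and a series ogp2 (65), and 18 libraries of sorted populations were not analysed here. No cell is tied to a mouse, so each group counts as 1 sample. Differences therefore carry no test, and an SD describes how cells of 1 group vary.

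The spliceosome cuts introns out of new transcripts. Its snRNPs each carry a short RNA held in a ring of Sm proteins, SF3a and SF3b belong to the snRNP that binds the branch point, SR proteins mostly promote the use of nearby exons, and hnRNPs coat the transcript and often repress splice sites. Roles named here are those known from mammalian proteins, many of them from human cells. Neural stem cells that leave quiescence make more ribosomes, and the share of a cell's transcripts that encodes ribosomal proteins is a common measure of that step.

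Values are TPM, which adjust for transcript length and give each cell the same total, so levels of different genes can be compared, but TPM keeps no read counts and the depth behind a value is unknown. The median number of genes at 1 TPM or more was 3662 in striatum, 3412 in cortex and 3517 in SVZ cells. The astrocyte and quiescent stem cell markers listed for the sorted cells (8 of 8 detected in each group) summed to a median of 29953 TPM in striatum, 29161 TPM in cortex and 31464 TPM in SVZ cells. Activated and cycling markers summed to medians of 33.8 TPM in striatum, 171.5 TPM in cortex and 135.3 TPM in SVZ cells. Neuroblast markers had medians of 0 in striatum, 52.8 TPM in cortex and 0.03 TPM in SVZ cells. Markers of the other cell types were near 0 in the median cell of each group but not in every cell. The medians of the summed microglial, ependymal and neuronal markers were 0 in each group, with highest sums in SVZ cells of 989 TPM, 48.6 TPM and 418 TPM. Oligodendrocyte markers had medians of 0 in striatum, 0.42 TPM in cortex and 0.16 TPM in SVZ cells, where the highest sum was 1578 TPM and 6 of 7 markers were detected. Endothelial markers had medians of 4.39 TPM in striatum, 2.81 TPM in cortex and 1.58 TPM in SVZ cells, and Ptprc, which encodes the CD45 of the sort gate, did not reach 1 TPM in any cell. In 5 ogp cells the listed genes summed to only 66189 to 309864 TPM, and all cells were scaled to 1000000.

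The whole family took a small and variable part of each cell's transcripts, close to the same in both astrocyte groups and higher on average in SVZ cells. The 52 genes made up 0.581% of TPM in striatum cells (SD 0.133, n = 13, range 0.395 to 0.810), 0.574% in cortex cells (SD 0.108, n = 4) and 0.808% in SVZ cells (SD 0.416, 68 ogp and 65 ogp2 cells). The 4 cortex cells held 0.648%, 0.486%, 0.685% and 0.478%. Among SVZ cells the median was 0.677% and the range ran from 0.335 to 2.26%, so that every astrocyte lay inside the SVZ range. The SVZ mean lay above the median, and the cells of highest share are described with the ribosomal proteins.

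Within SVZ cells the levels of single members ran from 0.55 TPM for Srsf12 to 899 TPM for Hnrnpk, with a median over the 52 genes of 100.6 TPM. The 5 most abundant members held 38.9% of the family's transcripts. Hnrnpk, which binds runs of cytosine, and Hnrnpa2b1, which binds transcripts in the nucleus and in transport granules, were the highest hnRNPs at 899 TPM (SD 677) and 537 TPM (SD 378). Srsf5 and Srsf2, a pair of SR proteins, stood at 770 TPM (SD 545) and 599 TPM (SD 442). These 4 genes were also the only members at 1 TPM or more in at least 90% of SVZ cells, with 93.2%, 96.2%, 97.7% and 96.2% of cells. For Srsf5 the exact Clopper-Pearson 95% interval was 93.6 to 99.5%, and such intervals cover counting error over cells only.

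Most members were found in far fewer cells. At 1 TPM or more, 31 of 52 members were present in 50% or more of SVZ cells, against 28 members in striatum and 31 in cortex. The share of all genes that met this limit was not computed, and with 4 cortex cells the limit is coarse there. The Sm proteins Snrpe and Snrpg averaged 333 TPM and 330 TPM over SVZ cells but were detected in 55.6% and 57.1% of them. Among SF3 subunits Sf3b6, which lies at the branch point adenosine, led with 170 TPM and detection in 61.7% of SVZ cells. It was followed by Sf3b1, the large subunit that clamps the branch helix, with 146 TPM and 79.7% of cells. Over the 52 members the rank order of mean levels was close in striatum and SVZ cells (Spearman's rho 0.89 across genes, which are not independent replicates).

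The Sm gene Snrpb and its close relative Snrpn, an imprinted gene best known from neurons, differed in level and in reach. Snrpb averaged 175 TPM in striatum, 177 TPM in cortex and 267 TPM in SVZ cells. Snrpn averaged 103.3 TPM in striatum, 30.8 TPM in cortex, where 1 of 4 cells held 123.4 TPM and the others 0, and 81.2 TPM in SVZ cells. Snrpn was thus the lower of the pair in each group of cells. Transcripts of the pair were not similar enough to meet the limit used for shared copies (95% identity over 300 bases).

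Processed copies in the genome can take reads from their parent gene, and they were counted for that reason. Of the 52 members 14 had such a copy annotated as a pseudogene, 47 copies in all. For 12 of these members the copies held under 10% of the member's own TPM, among them Hnrnpa1 with 5.29%. The exceptions were Hnrnpa3, whose copies held 62.4% of its level, and Hnrnpc, which binds uridine tracts, with 35.95%, so the levels of these last genes are uncertain.

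Against SVZ cells as a whole, striatum astrocytes had lower means for most splicing factors, and no tested member was 2-fold higher. Ratios are the log2 of mean TPM plus 1 in the first group over the same in the second, for genes whose group means averaged at least 10 TPM. Over 50 members that met this limit the median was -0.56, against -0.18 over all 7863 genes, and 16 members were at least 2-fold lower. The background was 22.6% of all genes lower and 10.8% higher by that rule. Of the 16 genes, 7 were hnRNPs, 5 snRNP proteins, 2 SR proteins and 2 SF3 subunits.

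The SR protein Srsf9 was near 0 in astrocytes. It averaged 1.73 TPM in striatum cells (median 0, highest 7.90), against 32.1 TPM in SVZ cells (median 0, highest 423). The groups overlapped because 86 SVZ cells also lay below 1 TPM. In the 4 cortex cells it was listed at 0, 0, 0 and 1.86 TPM.

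Among snRNP proteins, Snrpa1 and Snrpb2, which sit together on the U2 small nuclear RNA, had the lowest striatum ratios. Snrpa1 reached 1 TPM in 1 of 13 striatum cells, at 3.15 TPM, against 50 SVZ cells (37.6%) with a mean of 79.8 TPM and a highest value of 637 TPM. Snrpb2 averaged 8.38 TPM in striatum cells (highest 64.8) and 57.2 TPM in SVZ cells (highest 596), a log2 ratio of -2.63. In cortex each of these genes was carried by a single cell, at 263 TPM for Snrpa1 and 208 TPM for Snrpb2, with 0 in the other 3.

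Among hnRNPs the lowest striatum ratios belonged to Hnrnph1, which binds runs of guanine, and to Hnrnpd, known for binding AU-rich messages. Hnrnph1 averaged 56.7 TPM in striatum cells (median 1.97, highest 221) and 216 TPM in SVZ cells (median 137, highest 1619), a log2 ratio of -1.91. Hnrnpd averaged 8.94 TPM in striatum cells and 26.9 TPM in SVZ cells, a log2 ratio of -1.49. For the SF3a subunit Sf3a1 the means were 4.67 TPM in striatum cells, where 2 of 13 cells reached 1 TPM, and 25.3 TPM in SVZ cells, a log2 ratio of -2.21. For the SF3b subunit Sf3b3 the ratio was -1.66, with 8.40 TPM in striatum cells and 28.8 TPM in SVZ cells.

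The abundant members were divided. Hnrnpk, the highest in SVZ cells, averaged 643 TPM in striatum, 314 TPM in cortex and 899 TPM in SVZ cells, and Snrpe and Hnrnpa1 were at log2 ratios of -1.09 and -1.48 in striatum over SVZ cells. Others were close in their group means. Hnrnpa2b1 averaged 525 TPM in striatum, 557 TPM in cortex and 537 TPM in SVZ cells, and its 4 cortex cells held 821, 566, 418 and 421 TPM. Its mean differed between the SVZ name series, at 715 TPM in ogp and 352 TPM in ogp2. Column names also divide the striatum cells, and Hnrnpa2b1 averaged 427 TPM in 11 OGStr and 1063 TPM in 2 OStr cells. Srsf5 averaged 796 TPM in striatum, 652 TPM in cortex and 770 TPM in SVZ cells. Sf3b1 averaged 118.7 TPM in striatum, 187 TPM in cortex and 146 TPM in SVZ cells. For these last 3 genes the group means lay within 1 SD of each other.

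Cortex astrocytes were also lower than SVZ cells for most members, with a median log2 ratio of -0.71 over 49 members and -0.06 over 7398 genes. Of these members 20 were at least 2-fold lower, beside a background of 33.6%, and 3 were at least 2-fold higher, beside 23.7%. With 4 cells the ratio of a gene can rest on 1 cell, and the backgrounds in both directions were wide. Sf3b2, an SF3b subunit, was listed at 0 in all 4 cortex cells, against 111.1 TPM and 72.2% of cells in the SVZ. Hnrnpr, Hnrnpll, Hnrnpul1, Hnrnpul2 and Srsf12 were also listed at 0 in all 4 cortex cells, and Srsf12 in all 13 striatum cells too. Hnrnpul2 and Srsf12 were near the floor in SVZ cells as well, at means of 1.82 and 0.55 TPM. The share of all genes listed at 0 in all 4 cortex cells was not computed, so these zeros are a description only.

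The 3 members that were higher in cortex came from 3 roles. Srsf4, an SR protein, was listed at 248, 0, 194 and 0 TPM in cortex cells, against a mean of 34.9 TPM in SVZ cells. Hnrnpab was listed at 118.7, 0, 346.6 and 0 TPM in cortex cells, against a mean of 56.2 TPM. Sf3a2 was above 1 TPM in each cortex cell, at 90.5, 5.82, 49.9 and 17.4 TPM, against a mean of 19.9 TPM in SVZ cells. All of these values lay inside the SVZ range.

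Between the astrocyte groups the family had no common direction. The median log2 ratio of striatum over cortex was -0.05 over 46 members and -0.19 over 6963 genes, and its sign changed with the scaling. At least 2-fold, 11 members were higher in striatum beside a background of 30%, and 7 were lower beside 31.4%. Snrpa, a protein of the snRNP that finds the 5′ splice site, averaged 100 TPM in striatum cells and 7.68 TPM in cortex cells, where 1 cell held 30.7 TPM. Srsf1, an SR protein that promotes exon inclusion, averaged 175 TPM in striatum cells and 78.1 TPM in cortex cells, which held 81.95, 0, 230.6 and 0 TPM.

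The SVZ cells also differed widely from each other. Ranges of the ribosomal protein share (76 genes) were set at under 3% of TPM (46 ogp and 55 ogp2 cells, called ribosome-low), 3 to under 6% (11 cells) and 6% or more (21 cells, called ribosome-rich). These are ranges and not cell types: 8 cells lay within 0.5 points of the lower limit and 2 within 0.5 points of the upper one. The splicing factor share averaged 0.636% (SD 0.153) in ribosome-low cells, 0.999% (SD 0.324) in the middle range and 1.53% (SD 0.498) in ribosome-rich cells. Of the 21 ribosome-rich cells, 16 lay above every ribosome-low cell, whose highest value was 1.11%, and all 21 lay above the ribosome-low median of 0.614%.

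**Figure D1:**
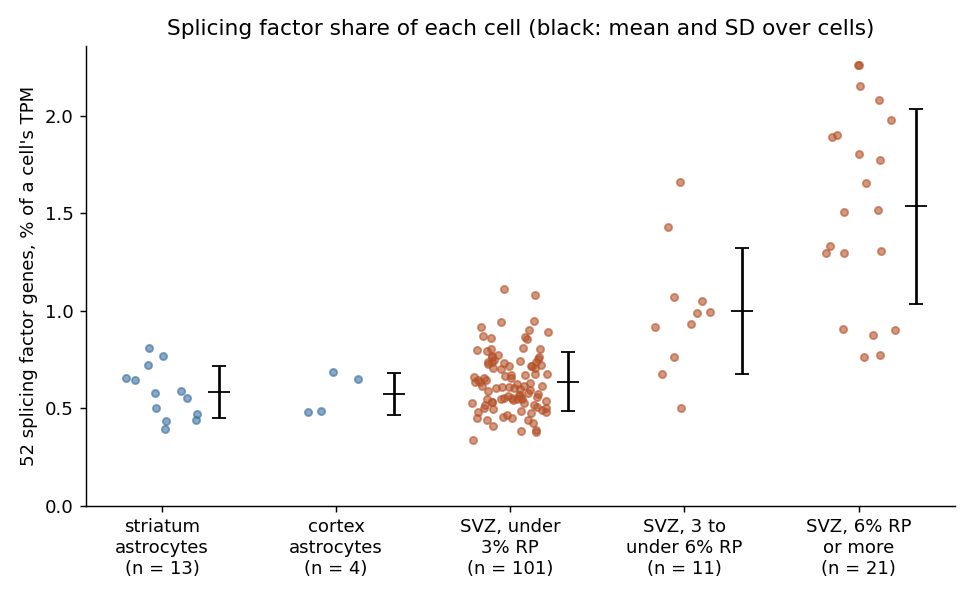
Each point is 1 cell, the vertical axis is the share of its TPM in the 52 splicing factor genes in percent, and black marks give the mean and SD over cells. Ribosome-low SVZ cells run from 0.335 to 1.11%, and striatum cells (0.395 to 0.810%) and cortex cells (0.478 to 0.685%) lie inside that range. Ribosome-rich SVZ cells run from 0.764 to 2.26% and overlap the upper part of the ribosome-low range.

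Ribosome-rich cells differed from ribosome-low cells in much else. They had a median of 6326 genes at 1 TPM or more, against 3250 in ribosome-low cells, and their mean share of ribosomal proteins was 5.91 times as high. Markers of activated and cycling cells summed to a median of 2177 TPM in ribosome-rich cells (range 117.7 to 13176), against 58.7 TPM in ribosome-low cells (0 to 874), with 12 of 12 markers detected in ribosome-rich and 10 of 12 in ribosome-low cells. Astrocyte and quiescent stem cell markers (8 of 8 detected in both) summed to a median of 1576 TPM in ribosome-rich cells (338 to 17446) and 33584 TPM in ribosome-low cells (6393 to 67074). Neuroblast markers summed to a median of 201 TPM in ribosome-rich cells (0 to 1205, 7 of 8 detected), against 0 in ribosome-low cells (0 to 141, 3 of 8 detected), and the part of these differences in the splicing factor values was not tested. In the 10 ribosome-rich cells that held at least 3 of 6 mitotic markers the splicing factor share averaged 1.91%. In the other 11 it averaged 1.19%, 1.87 times the ribosome-low mean. Those 11 cells were not free of activated and cycling markers, which summed to a median of 1143 TPM (10 of 12 detected).

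By gene, 32 of 50 members were at least 2-fold higher in ribosome-rich than in ribosome-low cells, beside a background of 25.7%, and 0 were 2-fold lower, beside 21%. The median log2 ratio was 1.37 over the members and 0.17 over 8340 genes. By role it was 1.78 for snRNP proteins, of which 10 of 12 were past 2-fold, and 1.41 for hnRNPs, with 12 of 19. It was 1.03 for SF3 subunits, with 5 of 9, and 0.95 for SR proteins, with 5 of 10. For the ribosomal proteins that defined the ranges it was 2.48, and for other splicing genes of the pathway it was 0.96. Of these other genes 50 were at least 2-fold higher, 51 lay within 2-fold, 3 were lower and 12 did not reach the level needed.

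The largest ratio belonged to Hnrnpa1, which represses splice sites and shuttles between nucleus and cytoplasm. It averaged 1202 TPM in ribosome-rich cells (lowest 5.34, median 1092, highest 2633) and 72.9 TPM in ribosome-low cells (lowest 0, median 0.16, highest 751), a log2 ratio of 4.02. The ranges overlapped, but all 21 ribosome-rich cells and 48 ribosome-low cells (47.5%) reached 1 TPM. Hnrnpab, which binds single-stranded nucleic acids, averaged 229 TPM in ribosome-rich cells and 19.2 TPM in ribosome-low cells, a log2 ratio of 3.51. Hnrnpk, already present in 92.1% of ribosome-low cells at a mean of 679 TPM, averaged 1803 TPM in ribosome-rich cells. The hnRNPs thus differed both in Hnrnpab, which 18.8% of ribosome-low cells held, and in a gene that most of them held.

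Among snRNP proteins, Snrpg and Snrpf of the Sm ring had the highest ratios, and other ring members varied. Snrpg averaged 1156 TPM in ribosome-rich cells (149 to 2502, median 1258) and 161 TPM in ribosome-low cells (0 to 1070, median 0), a log2 ratio of 2.84. Snrpf had the same ratio of 2.84, with 262 TPM in ribosome-rich cells and 35.6 TPM in ribosome-low cells. Snrpe averaged 928 TPM in ribosome-rich cells (284 to 2893, median 772) and 216 TPM in ribosome-low cells (0 to 2848, median 0). Snrpb averaged 563 TPM in ribosome-rich cells and 184 TPM in ribosome-low cells. Its relative Snrpn did not follow, with 86.9 TPM in ribosome-rich cells and 78.7 TPM in ribosome-low cells. Snrpd3, also of the Sm ring, was the other snRNP member under 2-fold, with 27.6 TPM in ribosome-rich cells and 17.05 TPM in ribosome-low cells. Snrpc, which is not part of the ring, was at a log2 ratio of 2.26, above Snrpe at 2.10.

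**Figure D2:**
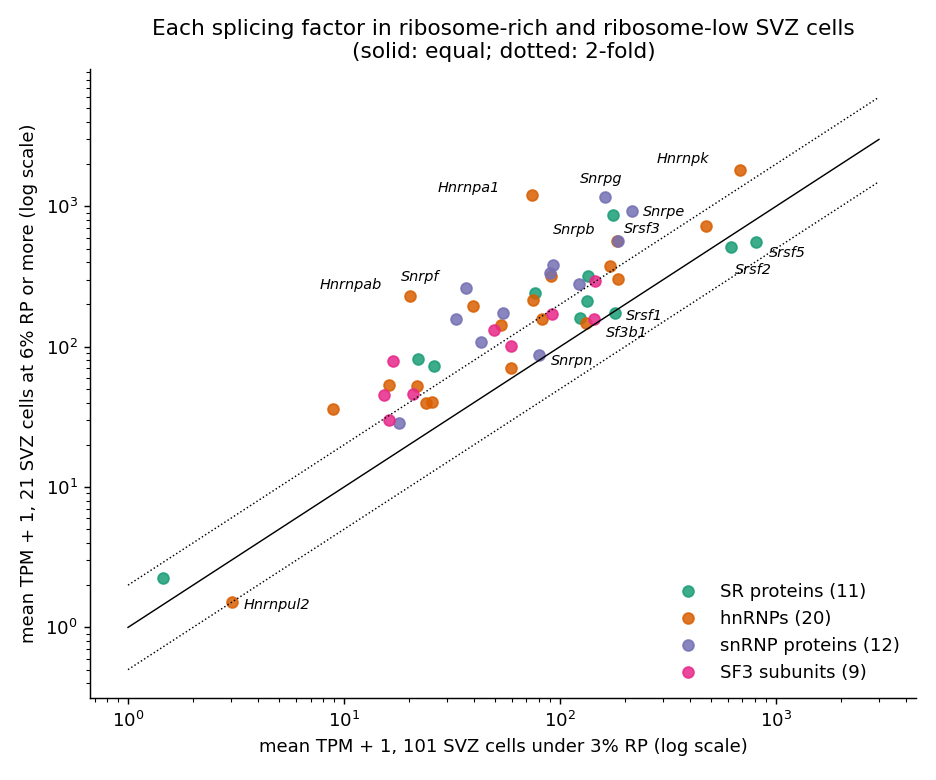
Each point is 1 of the 52 genes, with its mean TPM plus 1 over ribosome-low SVZ cells on the horizontal axis and over 21 ribosome-rich SVZ cells on the vertical axis, both on log scales. Most points lie above the solid line of equal means, Hnrnpa1 farthest at a log2 ratio of 4.02, while Hnrnpul2 (0.53 TPM in ribosome-rich and 2.04 TPM in ribosome-low cells), Srsf5, Srsf2 and Srsf1 lie below it.

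The SR proteins were split. Srsf3, the smallest SR protein and an adaptor for mRNA export, averaged 871 TPM in ribosome-rich cells (262 to 2101, median 790) and 175 TPM in ribosome-low cells (0 to 1103, median 94.5), a log2 ratio of 2.31. Srsf9 averaged 80.8 TPM in ribosome-rich cells and 21.01 TPM in ribosome-low cells, a log2 ratio of 1.89. In contrast, Srsf5 averaged 554 TPM in ribosome-rich cells (93.4 to 1328, median 486) and 806 TPM in ribosome-low cells (0.09 to 2576, median 673). Srsf2 averaged 516.5 TPM in ribosome-rich cells and 619 TPM in ribosome-low cells, and Srsf1 averaged 174 TPM in ribosome-rich cells and 179 TPM in ribosome-low cells. For these 3 genes the difference was smaller than the SD between ribosome-low cells, which was 534, 478 and 276 TPM. In the ribosome-low range Srsf5 and Srsf2 were the leading SR proteins, while in the ribosome-rich range Srsf3 was.

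Of the SF3 subunits, Sf3b3 averaged 78.6 TPM in ribosome-rich cells and 15.9 TPM in ribosome-low cells, and Sf3a2 44.6 TPM in ribosome-rich cells and 14.3 TPM in ribosome-low cells. Sf3b1 averaged 157 TPM (SD 89.6) in ribosome-rich cells and 142 TPM (SD 173) in ribosome-low cells, a log2 ratio of 0.14. It was present in 21 of 21 ribosome-rich cells and 74.3% of ribosome-low cells. The subunits of this complex therefore did not differ by a common factor.

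Detection differed between the ranges for every member. All 52 members were at 1 TPM or more in a larger share of ribosome-rich than of ribosome-low cells. The medians over members were 90.5% of ribosome-rich and 41.6% of ribosome-low cells. This comparison was not made over all genes. Their median number at 1 TPM or more was 6326 in ribosome-rich and 3250 in ribosome-low cells. In a cell of the ribosome-rich range 45.6 of the 52 members were detected on average, against 23.1 in a ribosome-low cell. Since ribosome-rich cells also had more genes detected in all, and read depth is unknown, a share of cells cannot be told apart from depth here. With cells of at least 4000 detected genes alone, 20 ribosome-rich and 11 ribosome-low, the members' median log2 ratio was 1.24 and that of all genes -0.01. That limit was chosen after the data were seen and does not make detection equal. Ribosome-low cells reached at most 5183 genes and ribosome-rich cells 8046, so the part of depth was not tested.

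The difference was present in both name series and was smaller in ogp2. Within ogp (15 ribosome-rich and 46 ribosome-low cells) the members' median log2 ratio was 1.63 and 35 of 50 members were at least 2-fold higher, beside a background of 28.7%. Within ogp2 (6 ribosome-rich and 55 ribosome-low cells) it was 0.81, with 21 of 50 members and a background of 29.4%. In both series 19 members were past 2-fold, but the share of all genes past 2-fold in both was not computed. Among the 19 were Hnrnpa1 at 3.79 in ogp and 3.67 in ogp2, and Snrpg at 2.67 in ogp and 2.69 in ogp2. The means of the splicing factor share stood 2.49 times as high in ribosome-rich as in ribosome-low cells in ogp and 1.91 times in ogp2.

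Set against the ribosome-low SVZ cells alone, astrocytes no longer stood apart as a group. The median log2 ratio of striatum over ribosome-low cells was -0.13 over 50 members and -0.11 over 7638 genes. By 2-fold, 1 member was higher beside a background of 12.4% and 8 were lower beside 19.0%. For cortex over ribosome-low cells the median was -0.08 over 48 members and 0.05 over 7162 genes. Of these members 3 were 2-fold higher beside 25.8% and 15 lower beside 30.7%. Single genes were still lower in striatum than in ribosome-low cells: Snrpa1 was at -5.46 and Srsf9 at -3.01, and Hnrnph1, which 7 of 13 striatum cells held, at -1.57. In cortex over ribosome-low cells Snrpa1 was at 0.29, from the single cortex cell that held it. Hnrnpa1, at -1.48 in striatum over all SVZ cells, was at 0.40 over ribosome-low cells.

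**Figure D3:**
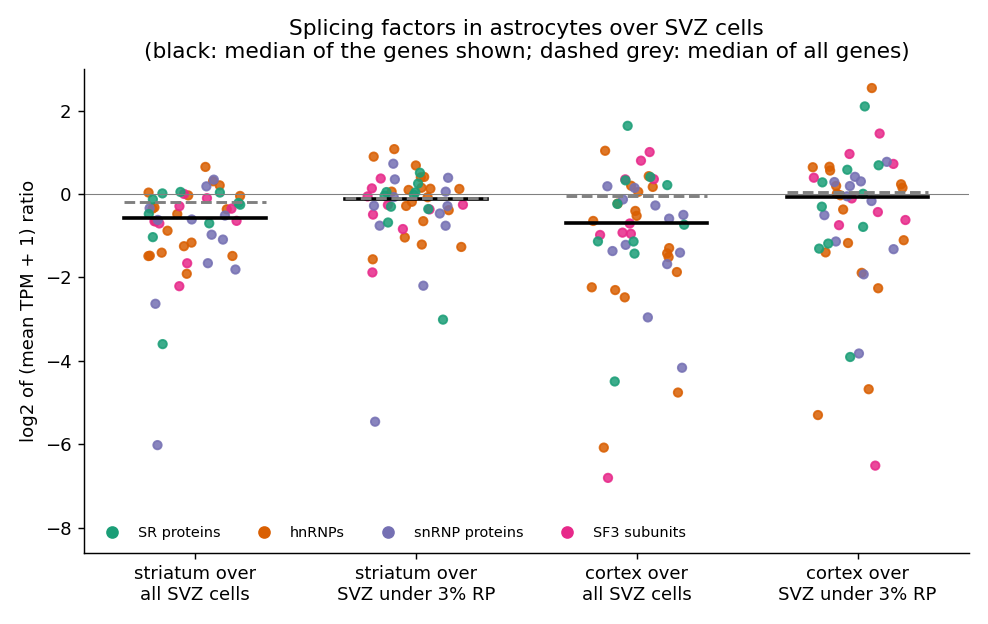
Each point is a splicing factor and the vertical axis is the log2 ratio of mean TPM plus 1 in astrocytes over SVZ cells, with black bars at the members' medians and grey dashes at those of all genes. Member medians of -0.56 and -0.71 over all SVZ cells become -0.13 and -0.08 over ribosome-low cells, and the lowest cortex points are genes listed at 0 in all 4 cells, whose ratio depends on the 1 TPM added.

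To see whether the members share sequence near their starts, the 250 bases before each RefSeq start (GRCm38.p6) were searched on both strands for 5 short motifs, and 46 of 52 members had an entry. Binding sequences of the ETS family (CCGGAAG) were found at 15 of 46 members (32.6%), against 7.83% of all genes and 17.8% of genes at 10 TPM or more in SVZ cells. They were unequally spread over the roles, at 6 of 7 SF3 subunits and 2 of 18 hnRNPs. The CCAAT box (CCAAT) was at 22 of 46 members (47.8%), against 37.5% of all genes and 42.6% of genes at 10 TPM or more, and at 13 of 18 hnRNPs. The NRF1 sequence was at 9 of 46 members (19.6%, against 4.23% of all genes and 10.8% of genes at 10 TPM or more), the YY1 sequence AAGATGGC at 1 member (1.83% of all genes) and the cAMP response element TGACGTCA at 2 (1.77% of all genes). CCGGAAG and AAGATGGC can share the letters AAG, and a match is a description of the sequence and not of binding.

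The 100 bases before the start are shown for 6 genes whose values the results turn on, written 5′ to 3′ on the strand of the gene, with CCGGAAG and CCAAT on either strand in capitals. Hnrnpa1 and Snrpg were far higher in ribosome-rich cells, Srsf5 and Srsf2 were not, and Sf3a1 and Sf3b6 carry the motif found at most SF3 subunits.
Hnrnpa1, chr15:103240297-103240396, + strand: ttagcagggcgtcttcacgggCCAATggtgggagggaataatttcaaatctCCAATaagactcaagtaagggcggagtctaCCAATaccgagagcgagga
Snrpg, chr6:86371440-86371539, + strand: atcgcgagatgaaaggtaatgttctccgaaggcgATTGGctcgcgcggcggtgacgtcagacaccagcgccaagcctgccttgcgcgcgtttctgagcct
Srsf5, chr12:80945399-80945498, + strand: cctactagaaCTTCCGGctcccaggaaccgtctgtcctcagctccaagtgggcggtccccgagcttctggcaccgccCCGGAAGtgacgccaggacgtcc
Srsf2, chr11:116853095-116853194, - strand: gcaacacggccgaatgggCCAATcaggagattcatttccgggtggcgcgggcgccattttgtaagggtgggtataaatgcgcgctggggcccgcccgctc
Sf3a1, chr11:4160254-4160353, + strand: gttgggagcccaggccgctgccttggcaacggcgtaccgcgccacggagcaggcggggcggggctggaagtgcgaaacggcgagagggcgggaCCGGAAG
Sf3b6, chr12:4817508-4817607, + strand: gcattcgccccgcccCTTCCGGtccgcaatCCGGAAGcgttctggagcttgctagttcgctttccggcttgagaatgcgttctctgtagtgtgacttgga

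Hnrnpa1 holds 3 CCAAT boxes in this window, Snrpg and Srsf2 1 each, and Srsf5 and Sf3b6 hold 2 ETS sequences each. A CCAAT box thus stands before Hnrnpa1, at a log2 ratio of 4.02 in ribosome-rich over ribosome-low cells, and before Srsf2, at -0.26. Whether the motifs go with these ratios over the members was not tested.

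Over all SVZ cells the splicing factor share went with the ribosomal protein share, at a Spearman's rho of 0.57 and a Pearson's r of 0.84. Both shares come from the same library of the same cell and are parts of 1 total, and with ribosomal proteins taken out of the total rho was 0.59. The relation rested on the cells with many ribosomal protein transcripts: rho was 0.15 within the ribosome-low cells, 0.59 within the 11 cells of the middle range and 0.47 within the 21 ribosome-rich cells. In ogp it was 0.66 and in ogp2 0.39, and in the 13 striatum cells it was -0.16. The number of genes detected also went with the ribosomal protein share (rho 0.64), and the partial rho at equal numbers of genes was 0.43. By role, the share of snRNP proteins had the highest rho at 0.63, followed by hnRNPs at 0.53, SF3 subunits at 0.34 and SR proteins at 0.22.

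**Figure D4:**
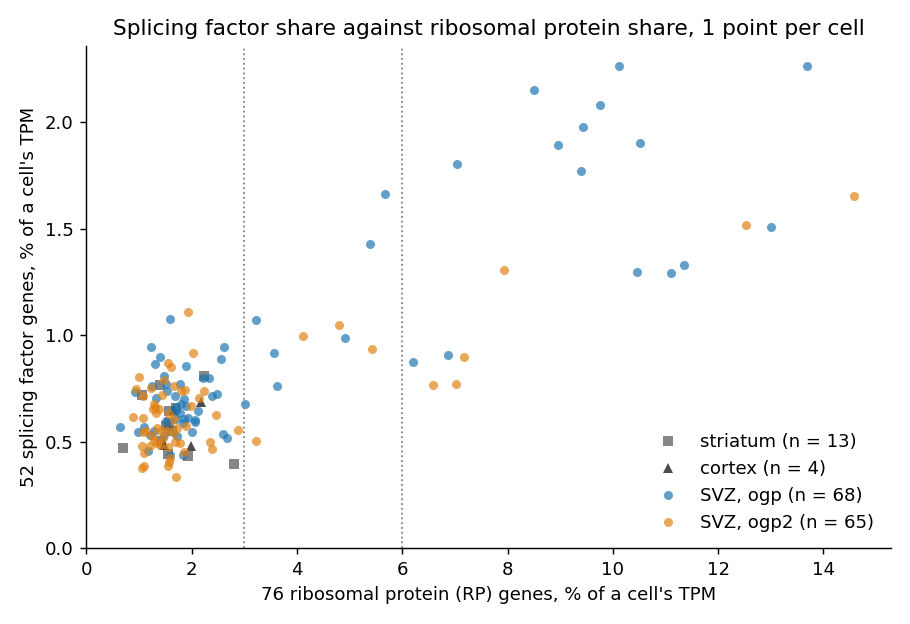
Each point is 1 cell, with the percent of its TPM in 76 ribosomal protein genes on the horizontal axis and in 52 splicing factor genes on the vertical axis, and dotted lines at 3 and 6%. Below 3% the cells form a cloud with no clear slope (rho 0.15), and above it the splicing factor share reaches 2.26% in ogp and 1.65% in ogp2.

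Gene by gene, 28 of 50 members had a rho of at least 0.3 with the ribosomal protein share over SVZ cells, beside a background of 19.1%, and 0 had a rho of -0.3 or less, beside 3.15%. The median was 0.33 over the members, 0.16 over 8283 genes and 0.28 over the other splicing genes. Hnrnpa1 was highest at 0.59, followed by the Sm genes Snrpd2 at 0.56, and Snrpe and Snrpg at 0.53 each. The lowest values were those of Srsf5 at -0.20 and Srsf2 at -0.13, and Sf3b1 was at 0.09. Within the ribosome-low cells the median over members was 0.07 and 0 of 50 reached 0.3, beside a background of 1.14%.

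In ogp 38 of 50 members reached a rho of 0.3, beside a background of 31.3%, and in ogp2 10 of 50, beside 9.93%. Those that did so in both series were 7: Hnrnpa1, Hnrnpd, Snrpb, Snrpb2, Snrpd2, Snrpg and Srsf4. The share of all genes that reached 0.3 in both series was not computed. Srsf5 and Srsf2 had the lowest values among SR proteins in both series: Srsf5 was at -0.34 in ogp and -0.12 in ogp2, and Srsf2 at -0.15 in ogp and -0.18 in ogp2. By length of transcript the median was 0.39 for 8 members under 1000 bases, 0.34 for 20 and 0.29 for 18 members in the next longer classes, and 0.31 for 4 members of 4000 bases or more. For all genes of the same classes it was 0.19, 0.16, 0.15 and 0.14.

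**Figure D5:**
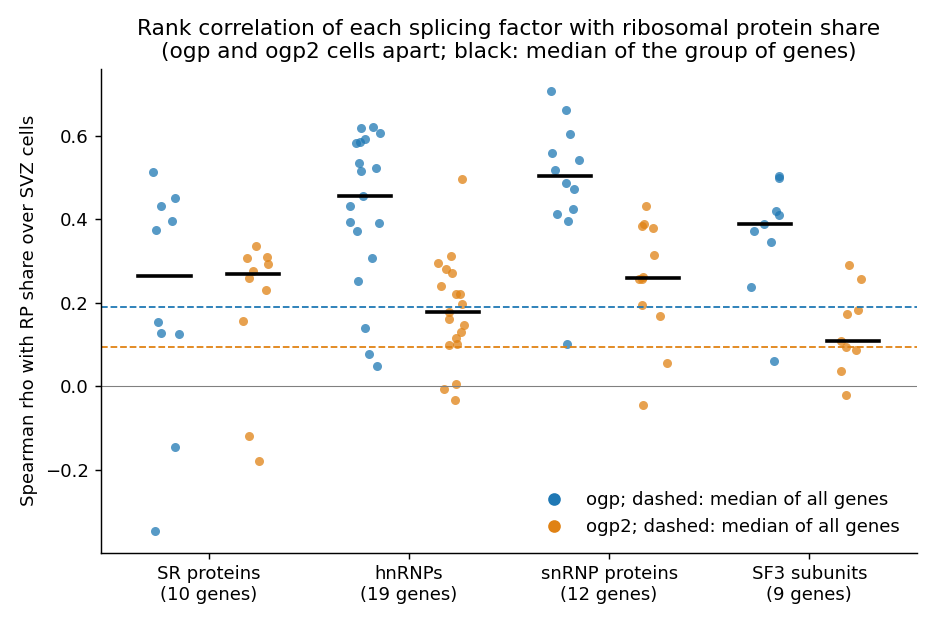
Each point is a splicing factor gene in 1 name series (blue for 68 ogp cells, orange for 65 ogp2 cells), and the vertical axis is its Spearman's rho with the ribosomal protein share over those cells. The members' medians are 0.42 in ogp and 0.21 in ogp2, dashed lines give the medians of all genes at 0.19 and 0.09, and the lowest points among SR proteins are Srsf5 and Srsf2.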

How the data were processed

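Per the submitters' processing notes, reads were handled with STAR 2.4.0g1 and RSEM 1.2.18 on the build mm10; the gene annotation is not given in the sources used here. The deposited values are TPM per gene and cell. Each cell was scaled to 1000000 with pandas 2.3.3 and numpy 2.4.6, correlations and Clopper-Pearson intervals came from scipy 1.17.1, and figures from matplotlib 3.10.9. Of 43309 identifiers 42425 have a symbol in GENCODE M21. Its gene types served to leave out pseudogenes and, among the splicing factors, all genes that are not protein-coding. Group values are means over cells, ratios are log2 of (mean TPM + 1), genes entered with group means averaging at least 10 TPM, and a gene was counted at 2-fold, at a rho of 0.3 or at 1 TPM for detection. Ribosomal proteins are 76 genes named Rpl, Rps, Rplp or Rpsa. The members and lists were chosen with earlier results of these data known. Within each role the 3 most abundant members, up to 2 per comparison and direction past 2-fold with at least 20 TPM, those of highest and lowest rho, up to 4 listed at 0 in a group, and Snrpb, Snrpn, Sf3b1, Srsf1, Hnrnpa1 and Hnrnpa2b1 were eligible to be named. Pseudogene copies were found by sequence match of transcripts at 95% identity over 300 bases. Columns of different SVZ cells were never identical (highest correlation 0.799), and the astrocyte columns were not part of this check. The procedure was tested on simulated data. Alternatives covered the pseudocount, filter, averaging, scaling, name series, the 5 incomplete cells and the ribosomal protein ranges. The minimum of 4000 genes and the count of mitotic markers were chosen after the data were seen.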

Additional observations from a re-analysis of the deposited data

How the results depend on the processing

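The members' median log2 ratio of striatum over SVZ cells stayed negative under all 12 alternatives, between -0.70 and -0.13. It was -0.70 with ogp cells only, where that of all genes was -0.22, and -0.26 with ogp2 cells only, beside -0.15. With ribosome-low SVZ cells only it was -0.13, close to the -0.11 of all genes. The members' median of cortex over SVZ cells stayed negative under all 15 alternatives. It moved most with ribosome-low SVZ cells alone, to -0.082, where that of all genes was 0.05. Without each cortex cell in turn it ran from -0.77 to -0.54. For striatum over cortex the sign was not settled: it turned to 0.017 with no filter, 0.28 with the mean of logs over cells and 0.34 with median-ratio scaling, and ran from -0.28 to -0.05 without each cortex cell in turn. Median-ratio scaling moved the median of all genes to 0.20 in that comparison, from -0.19. The ribosome-rich over ribosome-low median was lowest at 0.81, in ogp2; it was 3.38 with the mean of logs over cells, where that of all genes was 1.45, and 0.92 with non-mitotic ribosome-rich cells only. The rho of the family share with the ribosomal protein share was 0.78 as a Pearson correlation on the log2 scale, 0.39 in ogp2, 0.15 in ribosome-low cells, 0.43 at equal numbers of genes and 0.43 in cells with fewer than 3 mitotic markers. The members' median rho was 0.21 in ogp2, 0.071 in ribosome-low cells, 0.17 at equal numbers of genes and 0.20 in cells with fewer than 3 mitotic markers, where that of all genes was 0.09, 0.04, 0.03 and 0.09. The cause of these shifts was not tested. No paired analysis was possible because no cell is tied to an animal. TPM keeps no counts, so no limit from depth can be given, and the 4 cortex cells leave single genes there undecided.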

Other observations

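Splicing genes outside the 4 name families were listed from the pathway with earlier results known, and their values are given as a description. Eftud2, the GTPase of the spliceosome's catalytic core, averaged 118.8 TPM in ribosome-rich SVZ cells and 31.3 TPM in ribosome-low SVZ cells. Lsm8, which belongs to the ring on the U6 small nuclear RNA, averaged 229 TPM in ribosome-rich cells and 28.96 TPM in ribosome-low cells, and Lsm2, another ring member, 141 TPM in ribosome-rich cells and 17.5 TPM in ribosome-low cells. Lower in ribosome-rich cells were Son, a scaffold of nuclear speckles, with 109.5 TPM against 304 TPM in ribosome-low cells, and Luc7l2, with 21.4 TPM in ribosome-rich cells against 76.1 TPM in ribosome-low cells. Ddx5, an abundant RNA helicase, stood at 1459 TPM in ribosome-rich cells and 1471 TPM in ribosome-low cells. Lsm2 averaged 0.04 TPM in striatum cells, was listed at 0 in cortex cells and averaged 47.3 TPM in SVZ cells. Raly, an hnRNP relative, was listed at 0 in both astrocyte groups, against 36.6 TPM in SVZ cells.

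Among ribosome-low cells alone, the splicing factor share averaged 0.677% in ogp (SD 0.145, n = 46) and 0.602% in ogp2 (SD 0.152, n = 55), and the number of members detected averaged 24.3 in ogp and 22.0 in ogp2.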
